A study of Mus musculus with 9 samples.

Results

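The genes described here take up, activate, carry and oxidise fatty acids in the ventricle of the mouse heart. A list of 46 gene symbols defined them, and 39 had a probe set on the arrays, of 8251 genes that had a probe set assigned to a single symbol. Those 39 genes had 51 probe sets, and 10 of them had more than 1. Each gene was summarised by its probe set with the highest mean over the 9 arrays, called its brightest probe set. By that probe set 37 members were tested, since Slc27a2, a fatty acid transport protein, and Acadvl, the very long-chain acyl-CoA dehydrogenase, lay too close to background. The symbols Acsl1, Cpt1b, Hadha, Acadsb, Acat1, Acot2 and Ucp2 matched no probe set in the annotation used and were not analysed here. Members fall into 4 groups by role, with 12 tested genes of uptake and storage, 5 of the carnitine shuttle, 15 of the mitochondrial steps and 5 of peroxisomal and cytosolic steps.

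RNA from the ventricles of 9 mice was hybridised to 1-colour oligonucleotide arrays, with 1 array per animal. The caPI3K group, 3 mice transgenic for a constitutively active phosphoinositide 3-kinase (PI3K), had hearts that were 20% larger than in wild type littermates, per the labels. The dnPI3K group, 3 mice transgenic for dominant-negative forms of PI3K, had hearts that were 17% smaller. The NTG group, 3 non-transgenic mice, served as control for both. PI3K is a lipid kinase that acts downstream of the insulin receptor. The promoter that drives the transgenes, the number of founder lines, the strain and the age of the mice are not given in the sources used here. Animal numbers of caPI3K and NTG mice interleave, while dnPI3K mice have numbers of their own, so for dnPI3K the animal series and the genotype cannot be told apart.

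The heart draws most of its energy from fatty acids. They are released from lipoproteins at the capillary wall or taken up from albumin, cross the membrane with the help of transport proteins, are bound in the cytosol by a fatty acid binding protein and are coupled to coenzyme A. The carnitine shuttle then carries long-chain acyl groups into the mitochondrion, where a repeating cycle of dehydrogenation, hydration, a further dehydrogenation and thiolysis shortens them, and electron transfer flavoprotein passes electrons to the respiratory chain. Peroxisomes shorten very long chains first. The nuclear receptor PPARα, encoded by Ppara, activates many of these genes in heart.

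The arrays carry the ventricle's own markers at high intensity in every group: Myl2, the ventricular regulatory light chain, read 34720 to 37390 in caPI3K ventricles, 33100 to 35390 in dnPI3K ventricles and 35390 to 39260 in NTG ventricles. Pairs of arrays correlated across probe sets at 0.947 to 0.966 inside a group and at 0.939 to 0.959 across groups. A check of the labels through the transgenes was not made here. Markers of atrial muscle varied widely between single caPI3K and NTG ventricles, and parted from each other in dnPI3K. Myl7, the atrial regulatory light chain, read 652.8, 525.2 and 5579 in caPI3K and 7253, 4703 and 315.4 in NTG ventricles. In dnPI3K it read 36.51 to 142.3. Nppa, atrial natriuretic peptide, read 1694, 1450 and 3527 in caPI3K and 6840, 3744 and 1553 in NTG ventricles. In dnPI3K it read 8414 to 11230. Myl4 and Dkk3 of the same list also fell from NTG replicate 1 to 3 and were highest in replicate 3 within caPI3K. Bmp10, Nr2f2 and Sln did not share both features. In bulk tissue, fewer cells of a type and less RNA per cell cannot be told apart, which holds for every value below.

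Upstream sequence is shown for 4 members whose levels differed between groups, so that the letters ahead of genes that moved together can be read side by side. Each line is the 250 bases before the annotated start of the gene, 5′ to 3′ on the gene's strand, from RefSeq (assembly GRCm38.p6). Fabp3 encodes the heart fatty acid binding protein and lies on the plus strand (chr4:130308488-130308737), Slc25a20 encodes the carnitine-acylcarnitine translocase and lies on the plus strand (chr9:108661886-108662135), Acadm encodes the medium-chain acyl-CoA dehydrogenase and lies on the minus strand (chr3:153944644-153944893), and Eci2 encodes an enoyl-CoA isomerase and lies on the minus strand (chr13:34994145-34994394). Capitals mark each match on either strand to AGGTCA (the half-site letters of nuclear receptors), GGGCGG (a GC box), CCAAT or TATAAA.
Fabp3: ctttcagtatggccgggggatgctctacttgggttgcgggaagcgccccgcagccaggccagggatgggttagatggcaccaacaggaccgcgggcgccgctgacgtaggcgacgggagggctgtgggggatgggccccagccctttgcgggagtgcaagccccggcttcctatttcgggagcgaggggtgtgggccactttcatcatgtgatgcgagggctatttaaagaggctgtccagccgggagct
Slc25a20: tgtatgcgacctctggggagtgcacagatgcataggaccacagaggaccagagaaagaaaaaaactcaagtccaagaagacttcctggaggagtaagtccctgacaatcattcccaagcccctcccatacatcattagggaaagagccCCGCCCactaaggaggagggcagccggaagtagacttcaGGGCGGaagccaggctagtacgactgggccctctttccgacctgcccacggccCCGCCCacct
Acadm: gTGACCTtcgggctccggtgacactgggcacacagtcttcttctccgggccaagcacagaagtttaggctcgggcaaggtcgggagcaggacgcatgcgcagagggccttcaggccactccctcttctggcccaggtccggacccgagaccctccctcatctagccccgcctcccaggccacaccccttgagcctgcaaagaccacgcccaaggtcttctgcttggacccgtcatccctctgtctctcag
Eci2: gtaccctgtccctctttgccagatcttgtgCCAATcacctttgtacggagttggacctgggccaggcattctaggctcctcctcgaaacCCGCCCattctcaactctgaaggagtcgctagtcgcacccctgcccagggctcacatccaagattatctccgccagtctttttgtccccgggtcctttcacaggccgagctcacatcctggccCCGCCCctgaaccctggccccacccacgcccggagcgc

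The window of Acadm holds AGGTCA on the opposite strand, 249 to 244 bases before the start. The window of Slc25a20 holds 3 GC boxes and that of Eci2 holds 2 GC boxes and a CCAAT, while none of the 4 motifs occurs in the window of Fabp3. Among 32851 windows of all genes, AGGTCA occurs in 14%, GGGCGG in 32.7%, CCAAT in 33.8% and TATAAA in 12.4%. Windows were found for 30 of the members. Of these 30 genes, 8 hold AGGTCA, 19 hold GGGCGG, 15 hold CCAAT and 0 hold TATAAA. Counted by window, as for all genes, the shares of their 33 windows are 24.2%, 60.6%, 48.5% and 0% in that order. No pair of these motifs overlapped within a printed window. A match describes letters and does not show binding.

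In dnPI3K ventricles most members read lower than in NTG ventricles. Of 37 members, 28 had a log2 fold change below 0 (dnPI3K over NTG), against 49% of all 7480 genes tested, and the median was -0.149 over the members and 0.007 over all genes. Past the threshold (adjusted p under 0.05 in limma, Benjamini-Hochberg over all probe sets), 2 members fell and 0 rose, where 2.22% of all genes (2.18% of all probe sets) were called in either direction, 1.22% as lower and 1% as higher. The pair that fell was Fabp3 and Eci2. In 11 members every dnPI3K array lay below every NTG array, against 9.09% of all genes, and in 0 members every dnPI3K array lay above, against 10.2%. Unadjusted p was under 0.05 for 10 lower and 1 higher members, where the share of all genes was 7.01% lower and 7.93% higher.

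A single dnPI3K array carried much of that shift. The median difference of the members from the NTG mean was -0.375 on the array of dnPI3K replicate 1, and -0.075 and -0.082 on those of replicates 2 and 3. Replicate 1 had the lowest value of all 9 arrays for 17 of 37 members, a position it took for 13% of all genes. Without it, the median fold change was -0.050 with 23 of 37 members below 0. Fabp3 then stood at -0.51 and Eci2 at -0.65, each with an adjusted p of 0.0545, so that 0 members passed. Leaving out dnPI3K replicate 2 or NTG replicate 2 also left 0 members past the threshold, leaving out dnPI3K replicate 3 left 1, and without NTG replicate 3 the median was -0.085.

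Technical controls differed for the dnPI3K arrays as well. The spike-in controls, RNAs added during preparation, averaged 3023 ± 272 on caPI3K, 1790 ± 211 on dnPI3K and 2988 ± 369 on NTG arrays (SD, n = 3 each). The probe set for the 3′ end of 18S ribosomal RNA averaged 519.6 ± 38.1 on caPI3K, 6224 ± 2700 on dnPI3K and 536.1 ± 118 on NTG arrays. The ratio of 3′ to 5′ signal for Actb, a sign of RNA integrity, was 1.03 to 1.17 on caPI3K, 1.33 to 1.34 on dnPI3K and 1.17 to 1.31 on NTG arrays, while for Gapdh it was 0.819 to 0.856 on caPI3K, 0.788 to 0.835 on dnPI3K and 0.827 to 0.877 on NTG arrays. Within dnPI3K, replicate 1 had both the highest 18S intensity (8567) and the lowest spike-in intensity (1591). The part of these controls in the members' values was not tested.

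In caPI3K ventricles the members lay close to NTG. Past the threshold there were 0 members in either direction, where 0.107% of all genes (0.0845% of all probe sets) were called. At an unadjusted p under 0.05, 2 members were higher (Hsd17b4 and Plin2) and 1 was lower (Echs1), where the share of all genes was 3.98% higher and 3.22% lower. All caPI3K arrays lay above all NTG arrays for 3 members and below them for 3, where the share of all genes was 6.91% above and 5.71% below. The median fold change (caPI3K over NTG, log2) was -0.065 with 22 of 37 members below 0, as were 50% of all genes, but it was 0.025 when arrays were scaled to the same median and 0.046 without NTG replicate 3. Within the 2 series of animal numbers that hold both groups, the median was -0.051 (2 arrays per group) and -0.063 (1 array per group).

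Set against each other, caPI3K ventricles read higher than dnPI3K ventricles for many oxidation genes. Past the threshold 5 members were higher in caPI3K and 0 were lower, where 3.46% of all genes (3.24% of all probe sets) were called in either direction, 1.86% as higher and 1.6% as lower. They were Fabp3, Slc25a20, Acadm, Acaa2 and Hsd17b4. All caPI3K arrays lay above all dnPI3K arrays for 11 members and below them for 3 (Echs1, Slc27a1 and Dgat1), where the share of all genes was 11.7% above and 12.8% below. Unadjusted p was under 0.05 for 11 higher and 2 lower members, against 8.42% and 8.7% of all genes. The median over members was 0.146, with 24 of 37 above 0, and over all genes it was 0.000, with 50% above 0. This comparison shares the dnPI3K arrays with the one above, and without dnPI3K replicate 1 its median was 0.022 and 0 members passed. Without dnPI3K replicate 2 or caPI3K replicate 2 or 3, 0 members passed too, without dnPI3K replicate 3 it was 1, without caPI3K replicate 1 or NTG replicate 2 it was 2, and the median was 0.224 without dnPI3K replicate 2.

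**Figure D1:**
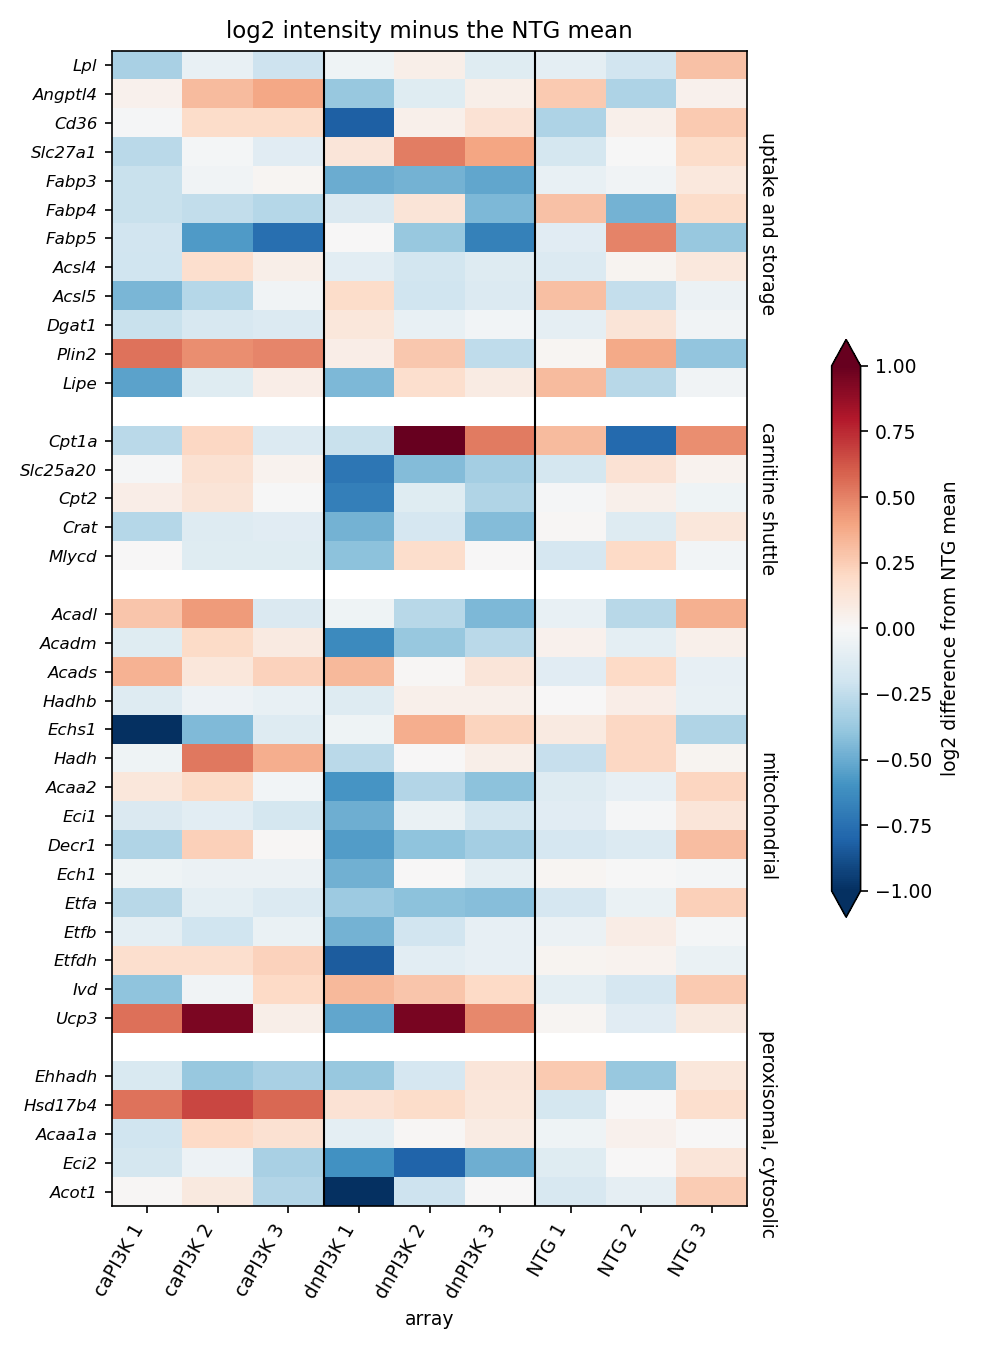
Each row is a tested member by its brightest probe set, ordered by role, and each column an array; colour is the log2 intensity minus the mean of the 3 NTG arrays, from blue (lower) to red (higher). The column of dnPI3K replicate 1 is the bluest, and in the row of Fabp3 all 3 dnPI3K arrays are blue.

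Among the genes of uptake and storage, 1 of 12 tested fell in dnPI3K against NTG and 0 rose. Of all genes, 1.22% were called lower and 1% higher. Fabp3, which binds fatty acids in the cytosol of heart muscle, read 16080, 18350 and 19050 in caPI3K, 13320, 13570 and 13070 in dnPI3K and 17830, 18350 and 20260 in NTG ventricles. The 3 dnPI3K arrays lay below all 6 others and varied by 1.87% (coefficient of variation), the least of any tested member in that group. Fabp3 fell by 0.50 ± 0.0893 (log2, SE; adjusted p = 0.0194) in dnPI3K against NTG, which left its mean 29.2% lower. Against dnPI3K, caPI3K stood 0.42 ± 0.0893 higher (adjusted p = 0.0313), and caPI3K against NTG differed by -0.08 ± 0.0893 (adjusted p = 0.89).

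Lpl, lipoprotein lipase, which frees fatty acids from circulating triglyceride, gave different answers on its 2 probe sets. The brightest read 12900, 15380 and 14000 in caPI3K, 15670, 16820 and 14890 in dnPI3K and 15100, 14120 and 19810 in NTG ventricles. These overlapped, with differences of -0.17 ± 0.126 between caPI3K and dnPI3K (adjusted p = 0.584) and -0.04 ± 0.126 between dnPI3K and NTG (adjusted p = 0.936). The other probe set read 4578, 5766 and 5258 in caPI3K, 2524, 2594 and 2915 in dnPI3K and 5592, 4965 and 8939 in NTG ventricles. By that probe set Lpl fell by 1.23 ± 0.186 in dnPI3K against NTG (adjusted p = 0.00805), to 41.2% of the NTG mean, and every dnPI3K array lay below every NTG array. It was higher in caPI3K than in dnPI3K by 0.95 ± 0.186 (adjusted p = 0.0201), and caPI3K against NTG was -0.28 ± 0.186 (adjusted p = 0.816). Averaged over both probe sets, the dnPI3K difference from NTG was -0.63 with an adjusted p of 0.0684. Which transcripts each probe set reads was not analysed here.

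Slc27a1, a fatty acid transport protein of muscle and fat, was the member of this group with the largest positive difference in dnPI3K. It read 1435, 1884 and 1734 in dnPI3K ventricles, against 1166, 1315 and 1495 in NTG ventricles, and the groups overlapped by the lowest dnPI3K array. The difference was 0.34 ± 0.133 and did not pass (adjusted p = 0.253). Plin2, which coats lipid droplets, read 1263, 1197 and 1215 in caPI3K ventricles, against 909.8, 1043 and 726.3 in dnPI3K and 879.7, 1125 and 658 in NTG ventricles. The 3 caPI3K arrays lay above the other 6, yet the difference from NTG, 0.50 ± 0.189, did not pass (adjusted p = 0.645). Fabp5, a binding protein of endothelium and macrophages, read 818.3, 632 and 554.3 in caPI3K, 935.8, 720.4 and 586.8 in dnPI3K and 863.1, 1319 and 718.4 in NTG ventricles. Its groups overlapped, and caPI3K against NTG was -0.50 ± 0.243 (adjusted p = 0.727).

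The other uptake genes did not separate the groups past the threshold. Cd36, the fatty acid translocase, read 1308 to 1497 in caPI3K, 749.3 to 1458 in dnPI3K and 1065 to 1577 in NTG ventricles, with dnPI3K replicate 1 lowest. Angptl4, an inhibitor of lipoprotein lipase, read 294.2 to 373.5 in caPI3K, 219.3 to 297.6 in dnPI3K and 231.2 to 342.4 in NTG ventricles on its brightest probe set. Its probe sets disagreed in sign in caPI3K against NTG. The brightest gave 0.25 ± 0.215 and the others 0.96 ± 0.622, 0.21 ± 0.388 and -0.57 ± 0.309, the last above the floor on 5 of 9 arrays. The acyl-CoA synthetase Acsl5, which activates fatty acids, read 228.7 to 306.6 in caPI3K, 274.6 to 356.2 in dnPI3K and 266.5 to 387.4 in NTG ventricles. Dgat1, the last enzyme of triglyceride synthesis, was 341.4 to 361.1 in caPI3K, 377.5 to 429.5 in dnPI3K and 373 to 434.4 in NTG ventricles. The 3 caPI3K arrays were thus the lowest of the 9 for Dgat1 by this probe set, with a difference from NTG of -0.17 ± 0.149 (adjusted p = 0.852). By its other, dimmer probe set the groups overlapped, at 68.52 to 72.36 in caPI3K, 55.98 to 80.96 in dnPI3K and 64.15 to 80.23 in NTG ventricles. Acsl4, Fabp4 and Lipe, the hormone-sensitive lipase, were read by brightest probe set. Their fold changes were between -0.25 and 0.01 in caPI3K against NTG and between -0.15 and -0.07 in dnPI3K against NTG. The other Acsl4 probe set, above the floor on 7 of 9 arrays, gave -0.73 ± 0.421 in caPI3K and -0.62 ± 0.421 in dnPI3K against NTG. Neither passed (adjusted p = 0.783 and 0.554).

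**Figure D2:**
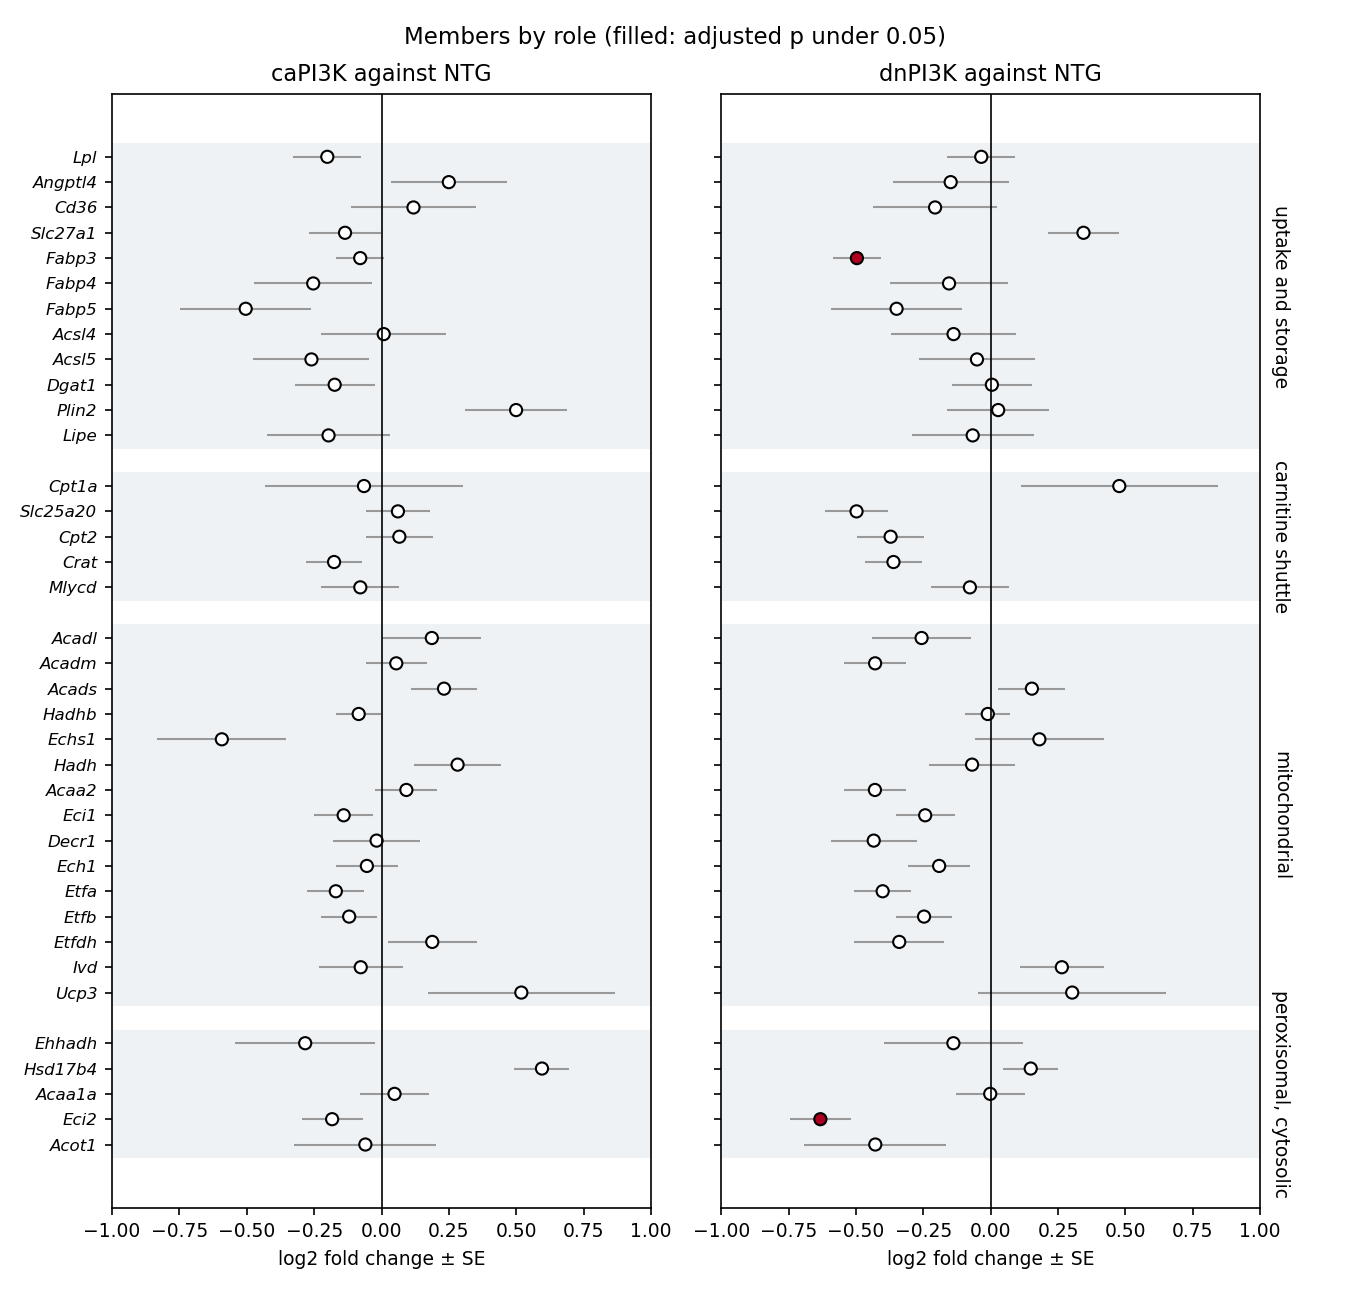
Log2 fold change with its SE for each tested member by brightest probe set, by role from top to bottom, for caPI3K against NTG (left) and dnPI3K against NTG (right); filled points have an adjusted p under 0.05. The filled points are Fabp3 and Eci2 on the right, and no point on the left is filled.

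In the carnitine shuttle 3 of 5 tested genes had all dnPI3K arrays below all NTG arrays, as had 9.09% of all genes, but none passed the threshold in dnPI3K against NTG. Slc25a20, the translocase that exchanges acylcarnitine for carnitine across the inner membrane, read 3927, 4395 and 4047 in caPI3K, 2394, 2925 and 3122 in dnPI3K and 3493, 4356 and 4047 in NTG ventricles. The 3 dnPI3K arrays lay below the other 6. Slc25a20 was 0.56 ± 0.118 higher in caPI3K than in dnPI3K (adjusted p = 0.0293), with a mean 46.5% higher, and dnPI3K against NTG was -0.50 ± 0.118 (adjusted p = 0.0608).

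Cpt2, the inner-membrane transferase that returns acyl groups to coenzyme A, read 8245, 8619 and 7860 in caPI3K, 4888, 7215 and 6377 in dnPI3K and 7793, 8163 and 7656 in NTG ventricles. All dnPI3K arrays were below all others, with replicate 1 far below the other dnPI3K arrays, and dnPI3K against NTG was -0.37 ± 0.125 (adjusted p = 0.186). Crat, which moves short acyl groups between coenzyme A and carnitine, read 4039, 4517 and 4550 in caPI3K, 3549, 4378 and 3641 in dnPI3K and 4965, 4517 and 5342 in NTG ventricles. Its dnPI3K arrays lay below all NTG arrays, with a difference of -0.36 ± 0.105 (adjusted p = 0.121). On the other, dimmer Crat probe set dnPI3K overlapped with NTG, at -0.35 ± 0.158 (adjusted p = 0.331). There all caPI3K arrays lay below all NTG arrays, at -0.31 ± 0.158 (adjusted p = 0.742). Mlycd breaks down malonyl-CoA, the inhibitor of the shuttle's entry step. It read 3056, 2811 and 2808 in caPI3K, 2295, 3440 and 3066 in dnPI3K and 2720, 3499 and 2988 in NTG ventricles, which overlapped throughout. Cpt1a, the entry transferase in its liver form, spread most in NTG of all members, with a coefficient of variation of 39.8%: it read 436.9 to 607.8 in caPI3K, 450.4 to 1154 in dnPI3K and 306.9 to 724.4 in NTG ventricles.

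The mitochondrial cycle had 0 members past the threshold against NTG in either transgenic group. Of its 15 tested members 2 were higher in caPI3K than in dnPI3K, against 1.86% of all genes. Acadm, which takes medium chains through the first dehydrogenation, read 10870, 13490 and 12550 in caPI3K, 7582, 9092 and 9767 in dnPI3K and 12170, 11050 and 12220 in NTG ventricles, so that dnPI3K lay below both other groups without overlap. The caPI3K over dnPI3K difference was 0.48 ± 0.114 (adjusted p = 0.0466), and dnPI3K against NTG was -0.43 ± 0.114 (adjusted p = 0.0917). Acaa2, the mitochondrial thiolase that ends each round, read 13700, 14460 and 12440 in caPI3K, 8414, 10350 and 9558 in dnPI3K and 11590, 11950 and 14690 in NTG ventricles. Again every dnPI3K array lay below the other 6. Acaa2 was 0.52 ± 0.115 higher in caPI3K than in dnPI3K (adjusted p = 0.0349), and dnPI3K against NTG was -0.43 ± 0.115 (adjusted p = 0.0944).

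Genes of electron transfer had no call against NTG. Etfa, the alpha subunit of electron transfer flavoprotein, read 4903, 5560 and 5398 in caPI3K, 4611, 4462 and 4422 in dnPI3K and 5285, 5662 and 7000 in NTG ventricles. All 3 dnPI3K arrays were below the other 6, and dnPI3K against NTG was -0.40 ± 0.106 (adjusted p = 0.0917). For Etfb, the beta subunit, the dnPI3K difference from NTG was -0.25 ± 0.103 on the brightest probe set (adjusted p = 0.294) and 0.54 ± 0.282 on the other (adjusted p = 0.412), so the probe sets disagree in sign. Etfdh, the dehydrogenase that hands these electrons to ubiquinone, read 2392 in dnPI3K replicate 1 and 3948 and 4016 in the other dnPI3K ventricles, against 4055 to 4364 in NTG ventricles. Replicate 1 was the lowest of the 9 arrays, and the difference was -0.34 ± 0.166 (adjusted p = 0.378).

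Echs1, the short-chain hydratase, read 2261, 3854 and 4794 in caPI3K, 5077, 6735 and 6098 in dnPI3K and 5560, 6050 and 4259 in NTG ventricles. All 3 caPI3K arrays lay below all 3 dnPI3K arrays, and caPI3K overlapped with NTG. The caPI3K over dnPI3K difference of -0.77 ± 0.239 was the largest in size among the 37 members and ran opposite to most mitochondrial members, and it did not pass (adjusted p = 0.121). The caPI3K against NTG difference was -0.59 ± 0.239 (adjusted p = 0.691), and it was -0.97 and 0.17 within the 2 series of animal numbers, so its sign differed between them. Hadh, the short-chain hydroxyacyl-CoA dehydrogenase, read 2491, 3701 and 3303 in caPI3K, 2125, 2581 and 2674 in dnPI3K and 2189, 2962 and 2613 in NTG ventricles. Acads, the short-chain acyl-CoA dehydrogenase, read 1402, 1196 and 1296 in caPI3K, 1380, 1112 and 1203 in dnPI3K and 1021, 1264 and 1041 in NTG ventricles. The groups of both genes overlapped, and the second Acads probe set had the opposite sign in both transgenic groups (-0.33 ± 0.154 and -0.18 ± 0.154, against 0.23 and 0.15 on the brightest).

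The other mitochondrial members did not pass in any comparison. Hadhb, a subunit of the trifunctional protein for long chains, read 18010 to 19050 in caPI3K, 18010 to 20390 in dnPI3K and 18710 to 20660 in NTG ventricles. Ech1, an isomerase for dienoyl-CoA, varied by 0.515% (coefficient of variation) in caPI3K and 1.39% in NTG ventricles, while in dnPI3K ventricles it read 13430 in replicate 1 and 18830 and 17550 in the others. Decr1, a reductase for unsaturated chains, read 1139 to 1329 in dnPI3K ventricles, against 1493 to 2080 in NTG ventricles, without overlap, a difference of -0.43 ± 0.16 (adjusted p = 0.228). Acadl, Eci1 and Ivd, the last an enzyme of leucine breakdown, differed from NTG by -0.26, -0.24 and 0.26 in dnPI3K without passing. Ucp3, an uncoupling protein of muscle, spread most among members in dnPI3K ventricles, with a coefficient of variation of 46.1%.

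Among peroxisomal and cytosolic members, Eci2 fell in dnPI3K and Hsd17b4 was higher in caPI3K than in dnPI3K. Eci2, an isomerase that prepares unsaturated chains in peroxisomes and mitochondria, read 2146, 2347 and 1945 in caPI3K, 1595, 1392 and 1735 in dnPI3K and 2229, 2435 and 2643 in NTG ventricles. The 3 dnPI3K arrays were the lowest of the 9. Eci2 fell by 0.63 ± 0.113 in dnPI3K against NTG (adjusted p = 0.0194), and its mean was 35.4% lower. The caPI3K over dnPI3K difference of 0.45 ± 0.113 did not pass (adjusted p = 0.0624).

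Hsd17b4, the peroxisomal D-bifunctional protein, was the member with the smallest p in caPI3K against NTG. It read 2042, 2219 and 2082 in caPI3K ventricles, against 1548, 1590 and 1513 in dnPI3K and 1238, 1402 and 1575 in NTG ventricles. All 3 caPI3K arrays lay above the other 6. The caPI3K over dnPI3K difference was 0.45 ± 0.102 (adjusted p = 0.0413). Against NTG, caPI3K was 0.60 ± 0.102 higher with an adjusted p of 0.0828 (0.0402 when arrays were scaled to the same median), and the difference was 0.69 and 0.40 within the 2 series of animal numbers. In dnPI3K it differed from NTG by 0.15 ± 0.102 (adjusted p = 0.561).

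The remaining members of these compartments overlapped between groups. Ehhadh, the peroxisomal L-bifunctional enzyme, lay near background, above the floor on 6 of 9 arrays, and read 41.17, 24.68 and 36.71 in caPI3K, 22.33, 40.91 and 49.93 in dnPI3K and 55.08, 33.66 and 49.48 in NTG ventricles. Acot1, a cytosolic thioesterase that releases fatty acids from coenzyme A, read 482.4, 511.7 and 391.3 in caPI3K, 225.9, 414.9 and 479.1 in dnPI3K and 427.9, 449.6 and 569 in NTG ventricles. For Acot1, dnPI3K replicate 1 had the lowest reading of the 9 arrays, and Ehhadh values under the floor of 35.34 have no order. Acaa1a, a peroxisomal thiolase, read 701.7 to 924.5 in caPI3K, 755.3 to 853.9 in dnPI3K and 782.1 to 829.6 in NTG ventricles.

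**Figure D3:**
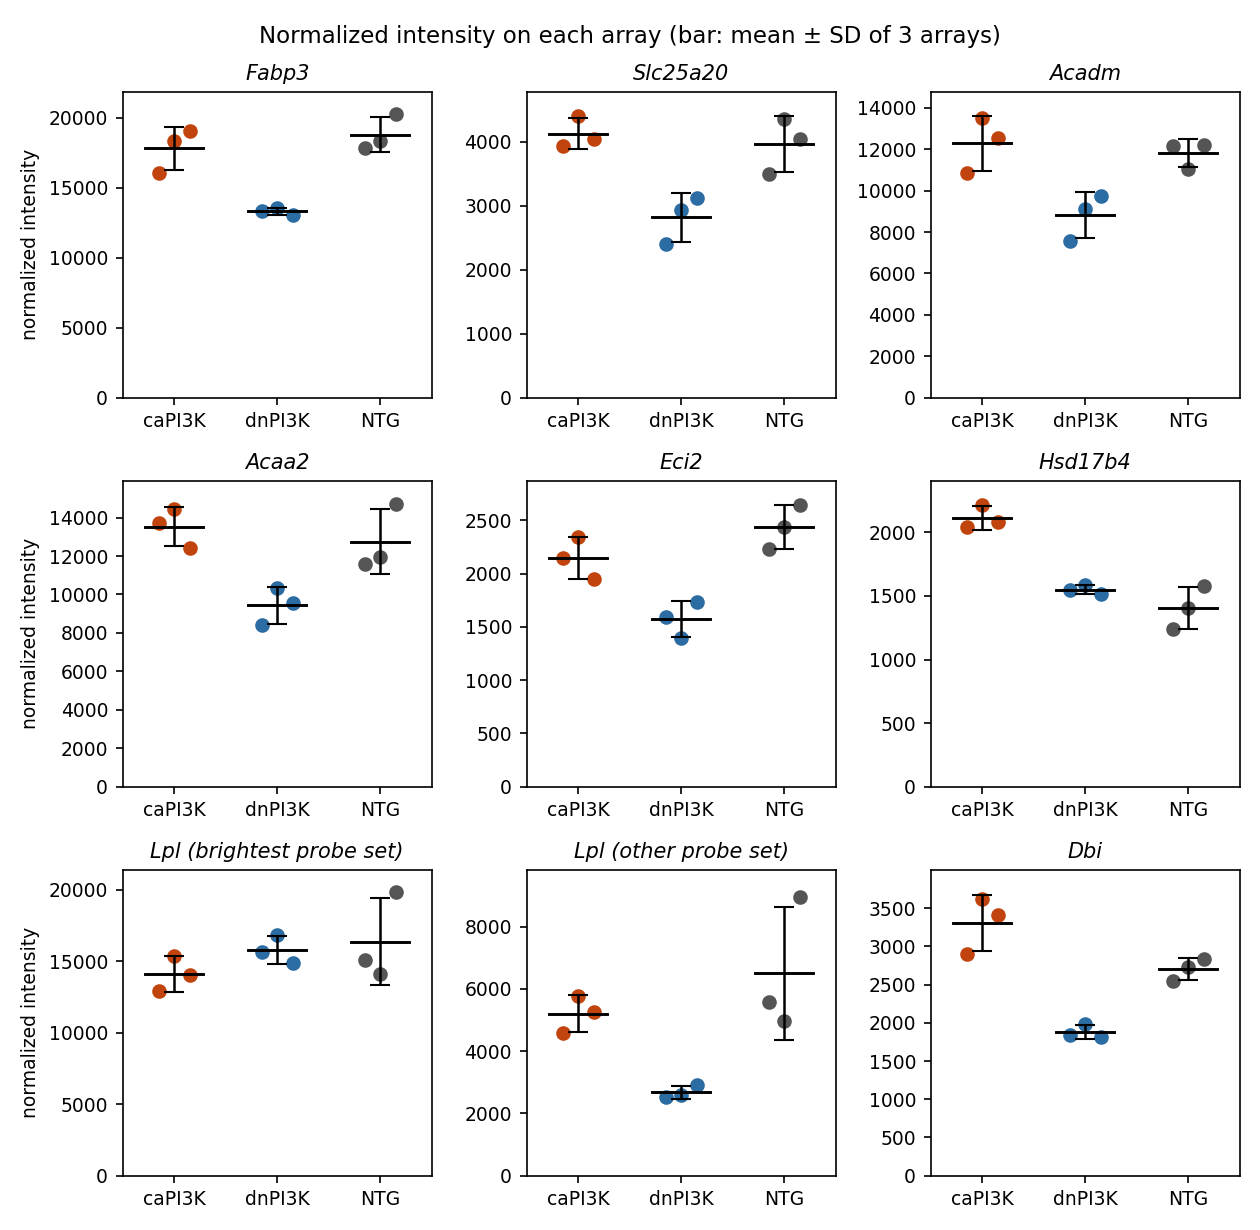
Normalized intensity (linear, from 0) on each array for the members past the threshold in any comparison, both Lpl probe sets and Dbi; points are arrays, and bars are the mean ± SD of 3 arrays. For Fabp3, Slc25a20, Acadm, Acaa2, Eci2 and Dbi the 3 dnPI3K arrays lie below the other 6, and for Hsd17b4 the 3 caPI3K arrays lie above them.

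Ordered by group means, dnPI3K was the lowest group for 20 of 37 members, caPI3K for 13 and NTG for 4, where the shares of all genes were 35.9%, 33.2% and 30.9%. By role, the median fold change in dnPI3K against NTG was -0.361 for the carnitine shuttle, -0.243 for mitochondrial steps, -0.139 for peroxisomal and cytosolic steps and -0.102 for uptake and storage. In caPI3K against NTG these medians were -0.065, -0.019, -0.060 and -0.155. The array of dnPI3K replicate 1 read -0.474 for the carnitine shuttle, -0.471 for mitochondrial steps and -0.375 for peroxisomal and cytosolic steps, but -0.074 for uptake and storage. On dnPI3K replicates 2 and 3 the carnitine shuttle read -0.125 and -0.303 the mitochondrial steps -0.064 and -0.082, the peroxisomal and cytosolic steps -0.164 and 0.082 and uptake and storage -0.013 and -0.123.

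**Figure D4:**
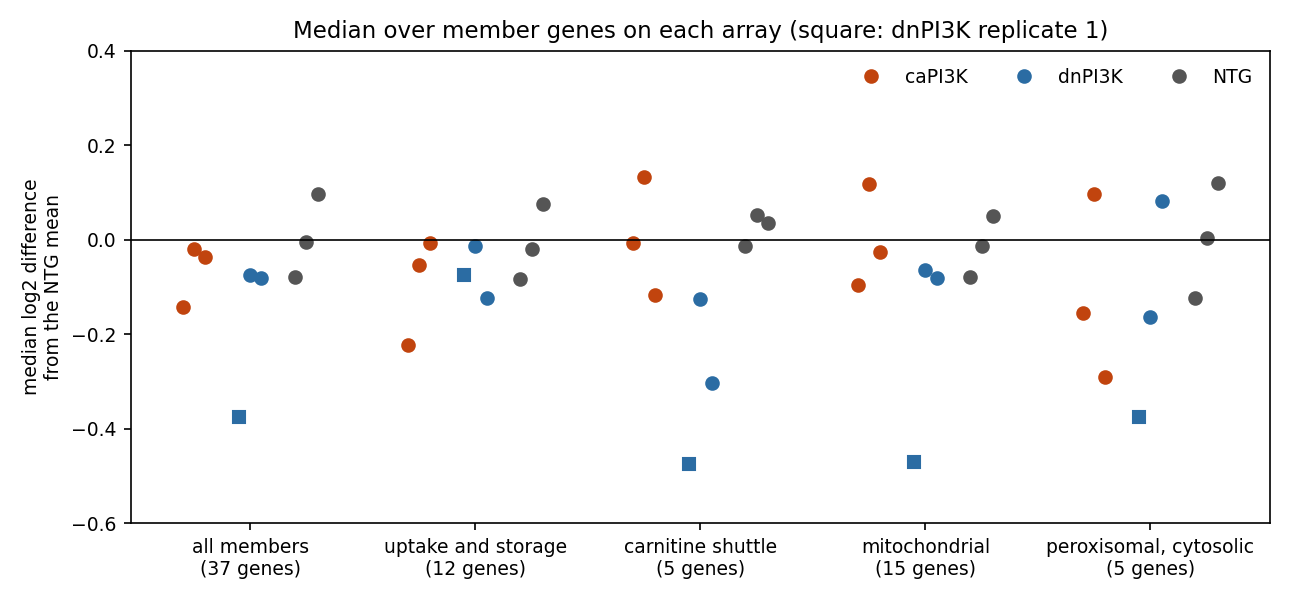
Median over the tested members of their log2 difference from the NTG mean, for each array (points; square for dnPI3K replicate 1), over all members and by role. The square lies at -0.375 for all members, below the other 8 arrays, and apart from them for the carnitine shuttle and the mitochondrial steps.

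Regulators of the pathway, a list of 23 genes of which 15 were tested, had 3 that fell in dnPI3K against NTG and 0 that rose, where 1.22% of all genes were called lower and 1% higher. Ppara, the receptor that activates fatty acid oxidation genes, read 1706, 1633 and 1683 in caPI3K, 663, 439 and 399.7 in dnPI3K and 1593, 1838 and 1756 in NTG ventricles. It fell by 1.82 ± 0.166 in dnPI3K against NTG (adjusted p = 0.000574), to 28.9% of the NTG mean, and dnPI3K replicate 1 was the highest of the dnPI3K arrays, unlike its place among the members. Lpin1, a coactivator of PPARα and an enzyme of lipid synthesis, read 902.9, 1066 and 1229 in dnPI3K ventricles, against 1517 to 1605 in NTG ventricles, and fell by 0.56 ± 0.114 (adjusted p = 0.0352). Nrip1, a corepressor of nuclear receptors that restrains oxidation genes, read 190.3, 240 and 262.1 in dnPI3K, against 402.8 to 448.2 in NTG, and fell by 0.91 ± 0.194 (adjusted p = 0.042). Ppara kept this call when each of the 9 arrays was left out in turn. Lpin1 kept it in 1 of the 9 fits (without dnPI3K replicate 3) and Nrip1 in 1 (without caPI3K replicate 1), so in the others 1 regulator of the 3 remained. The median over the 15 was 0.007.

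In caPI3K against dnPI3K, 4 regulators were higher and 1 was lower, where 1.86% of all genes were called higher and 1.6% lower. The higher ones were Ppara (1.78 ± 0.166, adjusted p = 0.000296), Nrip1 (0.94 ± 0.194, adjusted p = 0.0265), Lpin1 (0.54 ± 0.114, adjusted p = 0.031) and Rxrg, a partner receptor of PPARα. Rxrg read 620.1, 665.4 and 616.6 in caPI3K ventricles, against 367.2, 355 and 423.2 in dnPI3K ventricles, a difference of 0.74 ± 0.137 (adjusted p = 0.0163). Prkab1, a regulatory subunit of the AMP-activated kinase, read 772.3, 729.9 and 724.8 in caPI3K, against 964.5, 1096 and 1092 in dnPI3K, a difference of -0.50 ± 0.112 (adjusted p = 0.038). With each array left out in turn, Ppara kept its call in 9 of 9 fits, Nrip1 in 5, Lpin1 and Rxrg in 4 and Prkab1 in 3. Leaving out caPI3K replicate 2 or 3 or dnPI3K replicate 1 or 2 left Ppara alone of these 5. Against NTG, caPI3K had 0 regulators past the threshold and 2 higher at an unadjusted p under 0.05, against 3.98% of all genes. The smallest p there belonged to Rxrg (0.46 ± 0.137, adjusted p = 0.484) and Rxrb, another such partner (0.38 ± 0.148, adjusted p = 0.667). Esrra, a receptor that drives mitochondrial genes, followed (-0.21 ± 0.13, adjusted p = 0.808). On the other Esrra probe set the sign was opposite, at 0.04 ± 0.119 (adjusted p = 0.972).

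Of 53 other genes of the pathway 29 were tested. In dnPI3K against NTG 1 of them fell and 0 rose, where 1.22% of all genes were called lower and 1% higher. Dbi, the acyl-CoA binding protein, read 2894, 3615 and 3410 in caPI3K, 1835, 1983 and 1811 in dnPI3K and 2547, 2729 and 2833 in NTG ventricles, so that the 3 groups did not overlap. It fell by 0.53 ± 0.0996 in dnPI3K against NTG (adjusted p = 0.0249) and was 0.81 ± 0.0996 higher in caPI3K than in dnPI3K (adjusted p = 0.00163). With each array left out in turn, Dbi kept its call in dnPI3K against NTG in 4 of 9 fits, losing it without any 1 dnPI3K array or NTG replicate 2 or 3, and in caPI3K against dnPI3K in all 9. Oxct1, which activates ketone bodies for oxidation, read 5077, 5470 and 4752 in caPI3K, against 7282, 7582 and 7818 in dnPI3K, a difference of -0.57 ± 0.118 (adjusted p = 0.0275) that was called in 3 of these 9 fits, those without an NTG array. Acot13, a thioesterase, and Bckdha, of branched-chain amino acid breakdown, differed by -0.40 ± 0.109 and -0.26 ± 0.0957 in dnPI3K against NTG without passing (adjusted p = 0.098 and 0.225). Slc27a5, a liver transport protein, read 41.22 to 80.4 in dnPI3K, against 8.639 to 21.97 in NTG, where it lay below the floor (adjusted p = 0.218). In caPI3K against NTG, Acss1, a mitochondrial acetate enzyme (-0.42 ± 0.139, adjusted p = 0.53), and Acot8, a peroxisomal thioesterase (1.34 ± 0.538, adjusted p = 0.688), did not pass.

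Markers of other cells that handle fatty acids were read on the same arrays. All 7 tested adipocyte markers were below 0 in dnPI3K against NTG, as were 49% of all genes. Their median was -0.522, and none passed. Their summed intensity was 3199 to 4706 in caPI3K, 2420 to 2914 in dnPI3K and 2404 to 7057 in NTG ventricles, so dnPI3K lay within the NTG range. Adipoq, an adipocyte hormone, read 103.5 to 357.7 in caPI3K, 100.6 to 174.3 in dnPI3K and 111.8 to 683.2 in NTG ventricles, and Cidec stayed below the floor on all 9 arrays. Thrsp, a lipogenic gene of the same list, was 1.31 ± 0.196 higher in caPI3K than in dnPI3K (adjusted p = 0.00494). Of 9 endothelial markers 7 were above 0 in dnPI3K against NTG, with a median of 0.199 and 0 past the threshold. The 9 macrophage markers had a median of 0.090 and the 4 brown adipocyte markers tested a median of -0.170, with 0 past the threshold in either list. Fast skeletal muscle markers summed to 17170 to 23860 in caPI3K, 5000 to 6335 in dnPI3K and 10850 to 13870 in NTG ventricles. In dnPI3K against NTG 2 of 8 fell, against 1.22% of all genes, and the median was -0.637. These were Myl1 (means of 10920 in caPI3K, 1164 in dnPI3K and 4942 in NTG) and Casq1 (4966, 771.6 and 2751). As a list the 8 were not raised in caPI3K against NTG, with a median of 0.002, 4 above 0 and 4 below. Of 7 atrial markers 2 fell in dnPI3K against NTG (Myl4 and Myl7) and 0 rose, where 1.22% of all genes were called lower and 1% higher. For these 2 all dnPI3K arrays lay below all NTG arrays, against 9.09% of all genes. All dnPI3K arrays lay above all NTG arrays for 2 that did not pass, where the share of all genes was 10.2%. They were Nppa at 1.48 ± 0.461 (adjusted p = 0.148) and Sln at 0.74 ± 0.412 (adjusted p = 0.456). Sln read 27.22 to 33.6 in NTG, below the floor, and 36.88 to 78.04 in dnPI3K. It was above the floor on 4 of 9 arrays, so its difference rests on values near background. The 9 tested ventricular myocyte markers summed to 252400 to 263700 in caPI3K, 242700 to 260600 in dnPI3K and 252100 to 273400 in NTG ventricles. In dnPI3K against NTG their median was -0.087, with 7 of 9 below 0 and 0 past the threshold. All dnPI3K arrays lay below all NTG arrays for 2 of them, against 9.09% of all genes. The part of other cell types in the members' values was not tested.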

How the data were processed

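RNA from the ventricles of 9 mice was read on 9 arrays, 3 per group. The authors deposited 1 linear intensity value per probe set and array (12488 probe sets). Every deposited column has the same mean without the lowest and highest 2% of values (500.4), so arrays had been scaled before deposit; for the software, the sources used here give no name. Per the labels, the photomultiplier was set to 10%. Symbols came from the platform annotation, which gives 10833 probe sets a single symbol and 396 several and does not list 1193 (66 control probe sets aside). All 39 member symbols on the array were found in RefSeq (GRCm38.p6), which also gave the promoter windows.

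Intensities were quantile normalized, floored at the 20th percentile (35.34) and log2 transformed, and control probe sets were dropped. The 10645 probe sets above the floor on at least 3 arrays were tested with limma 3.58.1 (R 4.3.3; lmFit, eBayes with an intensity trend), all 9 arrays in 1 fit with group as the only term, two-sided, with Benjamini-Hochberg adjustment over all of them and a threshold of 0.05. Per-array values in the text are normalized intensities before the floor. Differences are log2 with the moderated SE. The procedure was tested on simulated data. Only 9 arrays limit the precision, and p-values cover the spread between these animals.

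The members and gene lists were chosen with earlier results of these data known. Values are given array by array for members past the threshold on any probe set, for Fabp3, Slc25a20, Acadm and Acaa2, and for the 3 members per role and comparison with the smallest p. From the pathway lists, Ppara, the genes past the threshold and the 3 with the smallest p per comparison are named. Decr1, Etfb, Etfdh, Ech1, Cd36, Cpt1a, Dgat1, Angptl4, Ucp3, Thrsp, Myl1, Casq1, Myl4, Myl7, Nppa, Dkk3, Bmp10, Nr2f2 and Sln were singled out after their values were seen. Alternatives covered normalization, floor, filter, moderation, arrays in the fit, animal series, probe set choice and leaving out each array.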

Additional observations from a re-analysis of the deposited data

Results flagged for a closer look

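The probe set for the 3′ end of 18S ribosomal RNA, an array control outside the comparisons of genes, averaged 519.6 ± 38.1 in caPI3K, 6224 in dnPI3K (8567, 3265 and 6840 on its 3 arrays) and 536.1 ± 118 in NTG ventricles (SD, n = 3 each). It was singled out as data that the comparisons of genes left out. Every dnPI3K array lay above every caPI3K and NTG array.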

How the results depend on the processing

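No paired analysis was possible because the labels give no replicate numbers that match single animals across groups. Their animal numbers form series, of which 2 hold both caPI3K and NTG mice, and with the series as a block 8 probe sets and 0 members passed in caPI3K against NTG. Member calls depended on the settings more than the fold changes did. With arrays scaled to the same median, 1 member passed in caPI3K against NTG (Hsd17b4), 1 in dnPI3K against NTG and 3 in caPI3K against dnPI3K, and the calls in dnPI3K against NTG over all probe sets were 135 higher and 93 lower (59.2% higher, against 46.6% in the main setting with 108 higher and 124 lower). Without the filter on dim probe sets, members passing were 1 in dnPI3K against NTG and 0 in caPI3K against dnPI3K (10 at an unadjusted p under 0.05), and probe sets passing were 1 in caPI3K against NTG, 138 in dnPI3K against NTG and 219 in caPI3K against dnPI3K. Without the intensity trend, 0 members passed in either comparison with dnPI3K in limma (8 and 10 at an unadjusted p under 0.05), and 1, 94 and 151 probe sets passed in the same order. Fitting only the groups compared gave 0 probe sets in caPI3K against NTG (660 at an unadjusted p under 0.05) and 94 probe sets and 1 member in dnPI3K against NTG. In the main setting 9, 232 and 345 probe sets and 0, 2 and 5 members passed. Leaving out each array in turn gave 0 to 20, 82 to 235 and 134 to 435 probe sets, 0 to 0, 0 to 2 and 0 to 5 members, and median member fold changes of -0.098 to 0.046, -0.201 to -0.050 and 0.022 to 0.224. Ppara kept its call in both comparisons with dnPI3K in all 9 of these fits, as did Dbi in caPI3K against dnPI3K and the second Lpl probe set in dnPI3K against NTG, whose adjusted p ranged from 0.00368 to 0.0586 over all settings. Of 1954 values of single genes under alternatives, 0 reversed a call's direction, 134 lost and 8 gained a call. A further 10 moved without any of these. Fold changes near 0 also changed sign, as Mlycd in caPI3K against dnPI3K did under 7 alternatives. The series of dnPI3K mice hold no other group, so that block gives nothing for comparisons with dnPI3K. The cause of these differences was not tested.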
